A study of Mus musculus with 6 samples.

Results

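The 7 genes described here encode granule proteins, ribonucleases and a cytokine receptor chain of eosinophils: Epx, Prg2, Prg3, Ear1, Ear2, Ear10 and Il5ra. They were taken by gene symbol from a table of 16440 genes, and all 7 were present. RNA sequencing covered 6 libraries of FVB N/J mouse cells, 3 from normal myeloid progenitors (MPs) and 3 from c-Kit+ progenitors of acute promyelocytic leukemia (APL). Normal MPs were bone marrow cells sorted as Lin-Sca-1-c-Kit+ and were described without a transgene or GFP. This gate drops maturing blood cells and the Sca-1+ stem cell compartment. The APL cells came from hMRP8-PML/RARα transgenic mice, in which the human MRP8 promoter drives the PML/RARα fusion in myeloid cells. They had been cultured briefly with SCF, IL-6 and IL-3 while a MigR1 retrovirus introduced GFP, had been expanded by transplantation into syngeneic, sublethally irradiated mice, and were sorted for c-Kit. Neither group is described as drug treated, and the age of the mice that gave the MPs is not stated. The 3 libraries of a group are described as biological replicates, without saying whether each came from a separate mouse, so n below counts libraries. The comparison asks how these genes differ between leukemic progenitors and the mixed normal progenitors of the c-Kit+ gate.

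Eosinophils fill their specific granules with a small set of cationic proteins. Eosinophil peroxidase (Epx) makes hypohalous acids, major basic protein (Prg2) and its homolog Prg3 are toxic to parasites and epithelium, and the eosinophil-associated ribonucleases (Ear genes) cleave RNA and belong to a rodent gene family that has multiplied rapidly. Transcription of granule genes begins in c-Kit+ precursors before the cells look like eosinophils, under GATA factors, C/EBP factors and PU.1. IL-5, through its alpha chain Il5ra and the beta chain Csf2rb shared with the IL-3 and GM-CSF receptors, expands and matures the committed precursors.

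On GRCm38, Prg2 (gene 19074) lies on chromosome 2 from 84980461 to 84983632 and Prg3 (gene 53856) from 84988215 to 84993886, with 4.6 kb between them. Epx (gene 13861) lies on chromosome 11 from 87863998 to 87875536, beside the genes of 2 other heme peroxidases. Ear1 (gene 13586, 43818765 to 43819639), Ear10 (gene 93725, 43922898 to 43923368) and Ear2 (gene 13587, 44102654 to 44103531) lie on chromosome 14, 103.3 kb and 179.3 kb apart. Il5ra (gene 16192) lies on chromosome 6 from 106710379 to 106749037.

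The Ear genes are shown first at the level of sequence, because their likeness limits how far their separate values can be read. The first 90 coding bases of Ear2, Ear1, Ear10, Ear6 and Ear11 are given 5′ to 3′ from the GENCODE M1 transcripts of the earlier build NCBIM37, with capitals at each base that differs from Ear2.
Ear2: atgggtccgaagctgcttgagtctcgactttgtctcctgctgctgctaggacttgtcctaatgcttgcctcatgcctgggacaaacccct
Ear1: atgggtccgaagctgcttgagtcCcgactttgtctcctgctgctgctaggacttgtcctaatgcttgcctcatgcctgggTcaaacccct
Ear10: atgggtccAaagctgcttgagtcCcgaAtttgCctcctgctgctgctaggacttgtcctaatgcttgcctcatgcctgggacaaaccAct
Ear6: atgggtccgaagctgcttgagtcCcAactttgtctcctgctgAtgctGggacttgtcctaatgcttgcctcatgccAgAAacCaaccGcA
Ear11: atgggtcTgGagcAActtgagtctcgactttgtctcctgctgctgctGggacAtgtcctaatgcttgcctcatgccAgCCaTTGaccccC
Over this stretch Ear1 differed from Ear2 at 2 bases, Ear10 at 5, Ear6 at 10 and Ear11 at 13. Over the whole coding sequence Ear2 was 97.0% identical to Ear10 and 95.7% identical to Ear1, while Ear1 and Ear10 were 95.1% identical. Ear6 was 88.2% and Ear11 80.3% identical to Ear2. Of the 50-base windows of each transcript, 37.6% for Ear2, 32.8% for Ear10 and 28.6% for Ear1 also occurred in another gene, against 1.4% for Ear6 and 0 for Ear11, Epx, Prg2 and Prg3. Prg2 and Prg3 were 63.9% identical. Before scaling, most deposited values of the 3 Ear members were fractions of a fragment (Ear1 and Ear2 were within 0.02 of a whole number in MP 3), whereas those of Epx, Prg2, Prg3 and Il5ra were whole fragments within 0.02. The split of fragments between Ear1, Ear2 and Ear10 is therefore uncertain, and Ear2 also shares its locus in the table with Ear3.

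The members were next described by their promoters, and shared regulation was not tested. Promoter entries of RefSeq on GRCm38.p6, from 250 bases before to 50 bases after the annotated start, matched 6 of the 7 members, all but Prg2. Those of Prg3, Ear2, Il5ra and Epx are printed 5′ to 3′ on the strand of the gene, from Prg3 (chr2:84987965-84988264, plus strand), Ear2 (chr14:44102404-44102703, plus strand), Il5ra (chr6:106748988-106749287, minus strand) and Epx (chr11:87875487-87875786, minus strand). Capitals mark matches, on either strand, to GATAA (GATA factors), TTNNGNAA (C/EBP factors) and GAGGAA (PU.1).
Prg3: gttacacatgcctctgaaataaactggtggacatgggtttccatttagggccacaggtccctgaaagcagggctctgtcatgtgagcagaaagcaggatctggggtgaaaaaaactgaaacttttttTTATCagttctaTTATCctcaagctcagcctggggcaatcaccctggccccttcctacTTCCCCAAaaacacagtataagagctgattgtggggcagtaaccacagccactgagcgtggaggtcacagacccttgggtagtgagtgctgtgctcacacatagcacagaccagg
Ear2: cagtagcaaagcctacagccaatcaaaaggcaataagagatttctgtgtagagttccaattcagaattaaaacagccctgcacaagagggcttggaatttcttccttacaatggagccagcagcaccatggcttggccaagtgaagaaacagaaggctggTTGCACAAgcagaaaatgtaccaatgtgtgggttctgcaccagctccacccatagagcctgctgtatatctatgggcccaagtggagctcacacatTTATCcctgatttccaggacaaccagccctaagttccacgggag
Il5ra: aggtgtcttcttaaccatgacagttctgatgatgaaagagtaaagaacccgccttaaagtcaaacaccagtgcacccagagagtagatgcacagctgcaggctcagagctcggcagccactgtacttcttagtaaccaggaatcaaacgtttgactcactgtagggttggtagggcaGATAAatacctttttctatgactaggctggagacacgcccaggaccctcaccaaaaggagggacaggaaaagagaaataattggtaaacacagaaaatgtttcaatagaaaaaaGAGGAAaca
Epx: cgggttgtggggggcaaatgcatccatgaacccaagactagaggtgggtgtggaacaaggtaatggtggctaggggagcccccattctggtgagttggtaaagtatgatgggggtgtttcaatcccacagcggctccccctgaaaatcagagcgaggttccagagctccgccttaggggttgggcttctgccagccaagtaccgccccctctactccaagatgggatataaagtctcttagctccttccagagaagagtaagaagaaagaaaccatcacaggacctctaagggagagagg
GATAA was found in 5 of the 6 promoters, once in Ear1, Ear2, Ear10 and Il5ra and at 2 places in Prg3, and not in the Epx window. In Prg3 the matches began 123 and 111 bases before the start, in Il5ra 73 bases before it, and in Ear1, Ear10 and Ear2 at the fourth, second and seventh base after it. Among 32851 RefSeq promoters of the same length, 25.4% held GATAA. TTNNGNAA was found in 4 of the 6, as TTGCACAA in the 3 Ear genes, starting 92, 94 and 90 bases before the start of Ear1, Ear10 and Ear2, and as TTCCCCAA 65 bases before that of Prg3. This pattern was in 40.7% of all promoters. GAGGAA was found in Il5ra alone, against 28.3% of all promoters. No match overlapped another, and the Ear1 and Ear2 promoters were 99.0% identical, so the Ear matches are not separate observations. These are matches of letters and do not show binding.

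The table's fragment values carried a scaling factor particular to each library and are called scaled fragments. Scaled totals lay between 21876288 and 25810097, and totals before scaling between 20608715 and 28382785. On fragments before scaling, each divided by its library total, MP library 3 stood apart from MP libraries 1 and 2. Its median squared differences from them were 10.64 and 10.48 times counting noise. The value was 3.04 between MP 1 and MP 2 and 3.55 to 5.7 between APL libraries. It was not computed on scaled fragments, whose totals were 24288946 in MP 3, 22108198 in MP 1 and 21876288 in MP 2. How much of the difference came from the scaling was not tested. Genes were tested with limma on log2(scaled fragments + 1) if they reached 1 in at least 3 of the 6 libraries (14595 genes), and called at an adjusted p under 0.05 with a fold change over 1.5. Kit, the sorting marker, had 10668 ± 272 scaled fragments in MPs and 5929 ± 132 in APL cells (SD, n = 3 libraries each). It was called lower in APL cells (log2 fold change −0.85, limma with Benjamini-Hochberg adjustment, adjusted p = 5.9e-06) but was detected at a high level in every library. Ly6a, which encodes Sca-1, had means of 27.2 in MPs and 43.4 in APL cells. Its higher call (log2 fold change 0.68, same test, adjusted p = 0.043) was lost under several alternatives.

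All 7 members passed the filter and all 7 were downregulated in c-Kit+ APL progenitors, where 24.4% of all genes tested were called lower, and 0 were upregulated, against 21.7% of all genes. Their 3 APL values lay below their 3 MP values in every case, an arrangement that 39.8% of all genes tested also showed. The median log2 fold change of the members was −2.03, with a range of −2.51 to −1.17, beside a median of −0.10 over all genes tested. The granule proteins and the receptor chain fell by about 2 or more on the log2 scale and the 3 ribonucleases by less. For each member the exact permutation test gave p = 0.1 (two-sided), the smallest value that 3 libraries against 3 allow. In bulk RNA, fewer cells that express these genes and less RNA per cell cannot be told apart, and the cells that gave the signal are not known. The groups also differed in sorting gate, culture and transplantation, and the part of these was not tested.

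**Figure D1:**
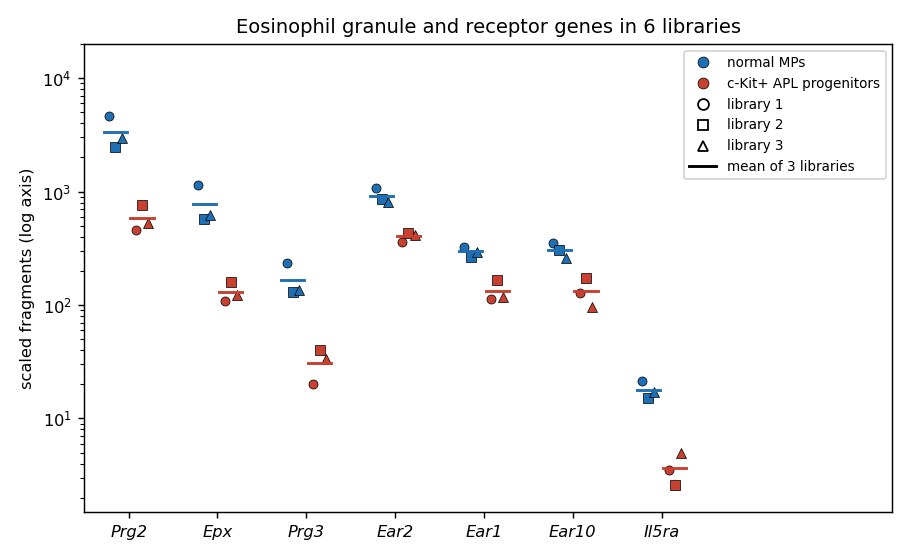
Scaled fragments of the 7 members in each of the 6 libraries on a log axis, with normal MPs in blue, c-Kit+ APL progenitors in red, the marker shape giving the library number and a line at the mean of 3 libraries. For every gene the 3 red points lie below the 3 blue points, and MP library 1 holds the highest value of each gene.

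Epx, the peroxidase that defines the eosinophil granule, had 1144, 567 and 620 scaled fragments in MPs 1, 2 and 3, against 108, 160 and 123 in APL 1, 2 and 3. The groups were far apart, although MP 1 held 2.02 times the value of MP 2. The mean was 777 ± 319 in MPs and 131 ± 26.7 in APL cells (SD, n = 3), a log2 fold change of −2.51 (standard error 0.26, limma with Benjamini-Hochberg adjustment, adjusted p = 3.4e-05). This is 5.69-fold lower, and 8.65% of the genes tested had a lower log2 fold change.

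Prg2 encodes major basic protein, the crystalline core of the granule. In the same order of libraries, it had 4621, 2463 and 2950 scaled fragments in MPs and 459, 765 and 528 in APL cells. Every MP library lay above every APL library, with MP 1 again highest. The means were 3345 ± 1132 and 584 ± 160 (SD, n = 3), and the log2 fold change was −2.50 (standard error 0.24, limma with Benjamini-Hochberg adjustment, adjusted p = 2.3e-05). The decrease, 5.65-fold, was of nearly the same size as that of Epx.

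Prg3, the less abundant homolog of major basic protein, had 237, 131 and 134 scaled fragments in MPs and 20.0, 39.9 and 33.3 in APL cells. It followed the same order as Prg2 in APL cells, with APL 2 highest and APL 1 lowest. The log2 fold change was −2.39 (standard error 0.32, limma with Benjamini-Hochberg adjustment, adjusted p = 1.6e-04), from 168 ± 60.1 to 31.1 ± 10.1 (SD, n = 3). All 3 granule protein genes thus fell between 5.25-fold and 5.69-fold.

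Among the ribonuclease members, Ear2 had the most scaled fragments. Ear2 had 1069, 864 and 807 scaled fragments in MPs and 362, 434 and 414 in APL cells. The groups did not overlap, and the spread within each was narrow compared with Epx. From 914 ± 138 to 403 ± 37.5 (SD, n = 3), Ear2 fell by 1.17 on the log2 scale with a standard error of 0.12 (limma with Benjamini-Hochberg adjustment, adjusted p = 3.9e-05).

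Ear1 had 326, 268 and 296 scaled fragments in MPs and 113, 165 and 118 in APL cells. Ear10 had 354, 307 and 261 in MPs and 129, 173 and 96.9 in APL cells. In both genes APL 2 was the APL library nearest to the MPs, and the groups stayed separate. The log2 fold change was −1.18 for Ear1 (standard error 0.17, limma with Benjamini-Hochberg adjustment, adjusted p = 2.9e-04) and −1.23 for Ear10 (standard error 0.22, adjusted p = 8.8e-04). The 3 ribonucleases were 2.25-fold to 2.35-fold lower in APL cells. When Ear1, Ear2, Ear3, Ear6, Ear7 and Ear10 were summed into 1 feature, a step added after the values were seen, the sum was 1923 ± 280 scaled fragments in MPs and 777 ± 118 in APL cells. The sum fell by 1.31 on the log2 scale with a standard error of 0.13 (limma with Benjamini-Hochberg adjustment, adjusted p = 2.7e-05). All genes of the sum that were tested were called lower on their own. The decrease of the sum follows from theirs and is not separate support. It shows only that the decrease does not depend on the split among these paralogs. Ear11, which shared no 50-base window with another gene and was higher in APL cells, was not in the sum.

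Il5ra, the alpha chain that binds IL-5, was near the detection limit. It had 21.5, 15.2 and 17.1 scaled fragments in MPs and 3.53, 2.60 and 4.94 in APL cells, which were 23, 16 and 19 fragments against 3, 3 and 4 before scaling. The APL values were thus at or next to the floor of 3 fragments, and every MP library lay above them. The log2 fold change was −2.03 (standard error 0.32, limma with Benjamini-Hochberg adjustment, adjusted p = 4.6e-04). At so low a level the size of the change depended on the scale: it was −1.40 with a pseudocount of 5, −1.31 after quantile normalization and −0.97 on log2(FPKM + 0.1), all still called, and −0.17, with no call, on log2(FPKM + 1).

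Without MP library 1, which held the highest value of every member, all 7 were still called lower, with log2 fold changes of −2.19 for Epx, −2.24 for Prg2, −2.12 for Prg3, −1.90 for Il5ra and −1.13 to −1.05 for the 3 Ear genes. Without MP library 3, which stood apart on fragments before scaling, all 7 were also called lower, and the values ran from −2.63 for Epx to −1.18 for Ear1.

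Levels of different genes were compared in FPKM, which is per length. In normal MPs the order was Prg2 (170 ± 57.9 FPKM), Ear2 (74.9 ± 13.1), Ear10 (58.4 ± 10.4), Ear1 (23.0 ± 2.10), Epx (11.4 ± 4.68), Prg3 (6.29 ± 2.31) and Il5ra (0.160 ± 0.0280), each SD over 3 libraries. The ranges of Ear2 and Ear10, and those of Epx and Prg3, overlapped, although in each library the first of each pair was higher. In APL cells Ear2 (33.5 ± 3.84 FPKM) came first, before Prg2 (30.4 ± 8.80), Ear10 (26.9 ± 10.2), Ear1 (10.5 ± 2.83), Epx (1.93 ± 0.393), Prg3 (1.19 ± 0.389) and Il5ra (0.0326 ± 0.00987). Ear2, Prg2 and Ear10 were not separated there, since their ranges overlapped and Ear2 was above Prg2 in 2 of the 3 libraries. The locus of Ear10 in the table, 471 bases, is no longer than its coding sequence, while those of Ear1 and Ear2 span 875 and 878 bases, so FPKM of Ear10 rests on a shorter length.

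Ratios between members within a library restate, from the same values, that the granule proteins and the ribonucleases changed by unequal amounts. They are not separate support for the fold changes above. Prg2 over Epx, in scaled fragments, was 4.04 to 4.76 in MPs and 4.24 to 4.77 in APL cells (exact permutation p = 0.9, two-sided). Prg2 over Prg3 was 18.7 to 22.0 in MPs and 15.9 to 22.9 in APL cells (exact permutation p = 0.8). Ear2 over Ear1 was 2.73 to 3.28 against 2.63 to 3.51 and Ear2 over Ear10 was 2.81 to 3.09 against 2.51 to 4.27, with the APL values on both sides of the MP values. These ratios between Ear genes rest on the uncertain split of fragments among them. Between the groups of genes the picture differed, since Ear2 over Epx was 0.935 to 1.52 in MPs and 2.71 to 3.36 in APL cells, with no overlap (exact permutation p = 0.1, the smallest possible). Prg2 over Ear2 was 2.85 to 4.32 in MPs and 1.27 to 1.76 in APL cells, again without overlap (exact permutation p = 0.1). A ratio shows unequal change of 2 genes, and with 3 libraries against 3 none of the 10 ratios computed could reach an exact permutation p under 0.05 (Benjamini-Hochberg adjusted over the 10, p = 0.333 for Ear2 over Epx and Prg2 over Ear2 and 1 for the others given).

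**Figure D2:**
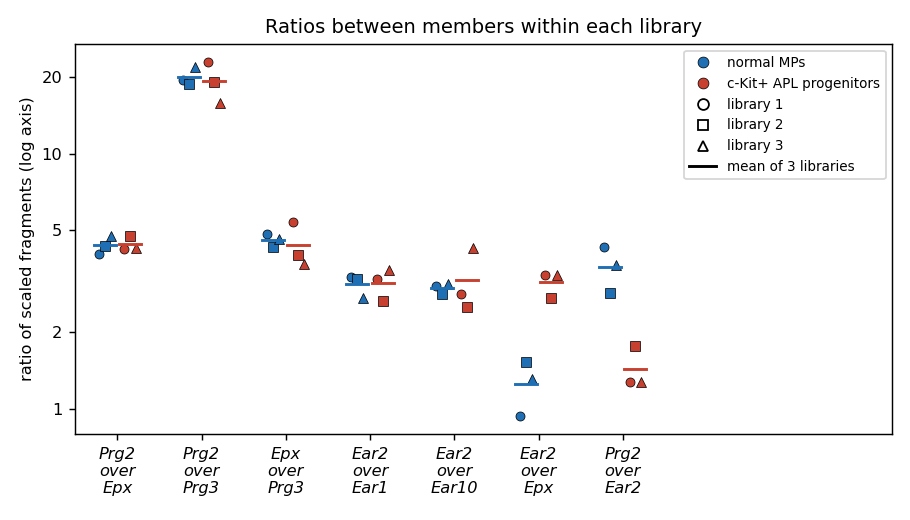
Ratios of scaled fragments between members within each library, on a log axis, with MPs in blue, APL cells in red, marker shapes for library numbers and lines at the means of 3 libraries. Prg2 over Epx spans 4.04 to 4.76 in MPs and 4.24 to 4.77 in APL cells, while Ear2 over Epx is at most 1.52 in MPs and at least 2.71 in APL cells.

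The profiles nearest to Epx and Prg2 over the 6 libraries were found by the Euclidean distance between log2(scaled fragments + 1) values centred on each gene's mean, among 10310 genes with a mean of at least 100 scaled fragments. Among these, Epx and Prg2 were each other's nearest gene, at a distance of 0.215. Prg3 and Il5ra had means under 100 scaled fragments and were not searched. The nearest genes outside the members were Siglecg (0.689), Hba-a1 (0.693) and Trim14 (0.717) for Epx, and Hba-a1 (0.587), Trim14 (0.615) and 2700081O15Rik (0.719) for Prg2. Siglecg is an inhibitory sialic acid receptor and Hba-a1 an alpha globin gene, which shares its locus with Hba-a2. The Ear members stood at ranks 367 to 392 from these 2 genes. With only 6 libraries in 2 groups, such a distance reflects mainly the size of the group difference and the libraries that were high within a group.

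The Ear members belong to the ribonuclease A family, of which 9 other genes were in the table and 7 were tested. Among these, 3 were downregulated and 4 upregulated, so the family as a whole moved in both directions (median log2 fold change 2.48). Ear11, now named Rnase2a, had 11.2, 5.71 and 8.12 scaled fragments in MPs and 1640, 1563 and 1592 in APL cells. It was the family's largest change, 7.46 on the log2 scale with a standard error of 0.22 (limma with Benjamini-Hochberg adjustment, adjusted p = 2.3e-08), opposite to Ear1, Ear2 and Ear10. Ear11 had 0.680 ± 0.218 FPKM in MPs and 133 ± 10.5 FPKM in APL cells, above every member in that group.

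Ear11 lies on chromosome 14 from 51255262 to 51256112, 7.15 Mb from Ear2 and in the block that holds the other ribonucleases. Rnase6, an antimicrobial ribonuclease of monocytes and macrophages, lies 124.1 kb from it and was lower in APL cells (142 ± 33.8 against 34.6 ± 8.34 scaled fragments, log2 fold change −2.01). Ear6, which shares its locus with Ear7, fell from 425, 267 and 257 to 75.4, 101 and 90.1 scaled fragments, a log2 fold change of −1.79. Ear3 was at 71.8, 54.5 and 138 scaled fragments in MPs and at 19.9, 39.4 and 0 in APL cells. Its call (adjusted p = 0.041, limma with Benjamini-Hochberg adjustment) was lost under 6 alternatives, and its fragments cannot be separated from those of Ear2. Rnase4, a secreted ribonuclease, rose by 3.05 on the log2 scale and Rnase10 by 4.15. Ang, named after its value was seen, shares its locus with Rnase4 and was 2.48 higher. Ear7 and Rnase12 were not tested, with at most 3.50 and 1.23 scaled fragments in any library.

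Epx belongs to the animal heme peroxidases, and the 2 other family members in the table, Mpo and Lpo, were both upregulated. Mpo, the peroxidase of neutrophil and monocyte primary granules, had 230111, 211340 and 225149 scaled fragments in MPs and 459396, 558727 and 535397 in APL cells. It rose by 1.22 on the log2 scale with a standard error of 0.25 (limma with Benjamini-Hochberg adjustment, adjusted p = 0.0022), but by only 0.24, with no call, after quantile normalization. Lpo, lactoperoxidase, rose from 21.6 ± 10.1 to 132 ± 8.72 scaled fragments (log2 fold change 2.68, adjusted p = 1.8e-04, limma with Benjamini-Hochberg adjustment). Within a library, Mpo was 201 to 372 times Epx in MPs and 3484 to 4338 times Epx in APL cells. The 3 genes are neighbours on chromosome 11: Mpo from 87793784 to 87804412, Lpo from 87806428 to 87826114, 2.0 kb away, and Epx 37.9 kb beyond Lpo. Epx thus had a fold change of the opposite sign to its neighbours, while Prg2 and Prg3, neighbours on chromosome 2, both fell.

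**Figure D3:**
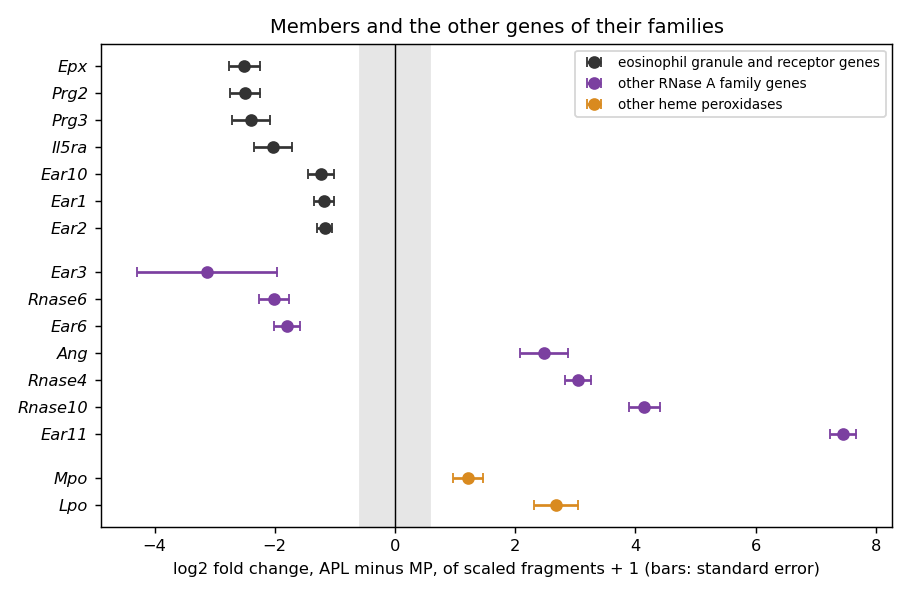
Log2 fold change, APL minus MP, of log2(scaled fragments + 1) for the 7 members (black), 7 other ribonuclease A family genes (purple) and 2 other heme peroxidases (orange), with bars of 1 standard error and a grey band for changes within 1.5-fold. The members run from −2.51 for Epx to −1.17 for Ear2, Ear11 stands at 7.46, and Mpo and Lpo lie at 1.22 and 2.68.

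Of the partners and signalling genes of the IL-5 receptor, 12 were in the table and 11 were tested, with 3 downregulated, 5 upregulated and 3 not called (median log2 fold change 0.12). Il5 itself was at or under 3 fragments in every library. Csf2rb, the shared beta chain, had 2065, 1957 and 1777 scaled fragments in MPs and 11930, 13195 and 12482 in APL cells. The log2 fold change of 2.70 (standard error 0.08, adjusted p = 2.3e-08, limma with Benjamini-Hochberg adjustment) was opposite in sign to that of Il5ra. Csf2ra, the GM-CSF receptor alpha chain, had 1.77 and Il3ra, the IL-3 receptor alpha chain, 1.81. In FPKM, Il5ra stood at 0.160 in MPs and 0.0326 in APL cells, Il3ra at 11.4 and 40.6, and Csf2ra at 38.3 and 132, so Il5ra was the least expressed of the 3 alpha chains in both groups.

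Csf2rb2, the IL-3 specific beta chain, is a close paralog of Csf2rb with a log2 fold change of 2.06, and the split of fragments between them is uncertain. Downstream of the receptor, the kinase Jak2 fell by 0.66, and the transcription factors Stat5b and Stat5a fell by 0.92 and 1.22. Lyn, a Src family kinase that binds the beta chain, was 1.16 higher. Jak1 (0.12), the phosphatase Ptpn11 (−0.37) and Sdcbp, which encodes the adaptor syntenin that binds the IL-5 receptor alpha chain (0.03), were not called, and the sign of Jak1 and Sdcbp turned with the scaling. Il3ra, Csf2rb2, Jak2, Stat5a and Lyn were named after their values were seen.

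Other surface and effector genes of eosinophils did not move as 1 group. Of 8 in the table, 7 were tested, 2 were downregulated, 2 upregulated and 3 not called (median log2 fold change −0.46). Il1rl1, the IL-33 receptor found on eosinophils, basophils and mast cells, had 995, 1130 and 893 scaled fragments in MPs and 10.6, 12.1 and 17.3 in APL cells, a log2 fold change of −6.15. Siglec5, the gene of Siglec-F, rose from 513 ± 60.0 to 1496 ± 30.0 scaled fragments (log2 fold change 1.55), and Emr1, which encodes F4/80, from 118 ± 14.9 to 823 ± 55.1 (2.79). F4/80 is also a macrophage marker. Alox15, a lipoxygenase of eosinophils and macrophages, had 127 ± 19.3 and 94.2 ± 27.1 scaled fragments and was not called. The eotaxin receptor Ccr3 had 3.75, 7.62 and 16.2 scaled fragments in MPs and 5.89, 11.3 and 3.70 in APL cells, so that no difference was detectable at this depth. Emr4 (log2 fold change −0.72) was not called either. Ltc4s, leukotriene C4 synthase, named after its values were seen, was called lower, with 5.62, 11.4 and 28.0 scaled fragments in MPs and at most 3 fragments in every APL library, and its call depended on the filter on low values, which left it out of the test at a mean of at least 10 or at least 1 in all 6 libraries. Hrh4, the histamine H4 receptor, was not tested.

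Among 12 listed regulators of the eosinophil lineage, 4 were downregulated, 7 upregulated and 1, Cebpe, was not called (median log2 fold change 1.29). The list was not split into genes that promote and genes that oppose eosinophil formation. The counts and the signs below therefore do not give a direction of the eosinophil program. Gata2, a factor of stem cells, mast cells and eosinophil precursors, had 2388, 2674 and 3450 scaled fragments in MPs and 68.3, 85.8 and 55.5 in APL cells, a log2 fold change of −5.33. Zfpm1, the GATA cofactor FOG-1, had a log2 fold change of −7.62, and Gata1, named after its values were seen, of −7.40. All 3 also serve erythroid and megakaryocytic cells. Ikzf1 (Ikaros) fell by 0.81. Cebpa (1.34) and Sfpi1, the gene of PU.1 (1.47), rose, and so did Xbp1 (1.32), a factor of the secretory pathway that eosinophils need. Cebpe, needed for the late granule program and also named after its values were seen, had 1088 ± 191 and 1280 ± 207 scaled fragments, with overlapping groups.

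The MP gate holds precursors of several lineages, so marker lists of other cells were read beside the members. The summed level of the 7 members was 4616 to 7773 scaled fragments in MPs and 1195 to 1740 in APL cells, with no member at 0 in any library. Basophil and mast cell markers, which share regulators with eosinophils, summed to 3684 to 4472 in MPs and 1440 to 1775 in APL cells, with 7 of 9 tested lower and 1 higher. Within that list Cpa3, the mast cell carboxypeptidase, fell by 5.48 and Hdc, histidine decarboxylase, by 1.62, while the basophil protease Mcpt8 was 1.13 higher. Gzmb, Cma1, Tpsb2 and Tpsab1 were at or under 3 fragments in every APL library.

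The erythroid list summed to 39485 to 52978 scaled fragments in MPs and 193 to 325 in APL cells, with all 5 genes tested called lower. Megakaryocyte markers summed to 2534 to 3496 in MPs and 107 to 153 in APL cells (4 of 5 lower), and lymphoid markers to 1272 to 1856 and 27.2 to 44.8 (3 of 4 lower). In ratios of mean sums, MPs over APL cells, these lists stood at 169, 22.6 and 38.9. The members stood at 4.11 and the basophil and mast cell list at 2.61. Sums follow the most abundant genes, Car1 (mean 38708 in MPs) in the erythroid list and Dntt (1421) in the lymphoid list. By gene, the median log2 fold change was −7.22 for erythroid, −5.50 for megakaryocyte and −1.77 for lymphoid markers. It was −2.03 for the members and −1.85 for the basophil and mast cell list. Monocyte markers summed to 2482 to 3122 in MPs and 1907 to 1976 in APL cells (3 of 5 lower and 1 higher). The neutrophil primary granule list went the other way, with 313764 to 350870 in MPs and 793934 to 945747 in APL cells (4 of 5 higher). Neutrophil secondary granule markers summed to 24361 to 48462 in MPs, lowest in MP 2, and 18128 to 21415 in APL cells (2 of 5 lower). Lower markers of these other lineages moved with the members, and their part in the members' decrease was not tested.

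**Figure D4:**
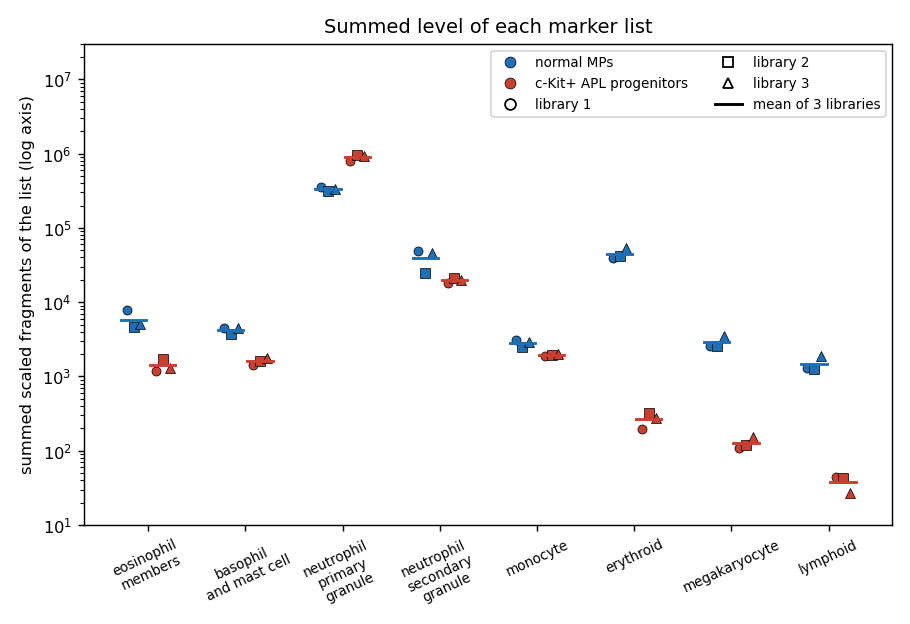
Summed scaled fragments of each marker list in the 6 libraries on a log axis, with MPs in blue, APL cells in red, marker shapes for library numbers and lines at the means of 3 libraries. The members lie between 1195 and 1740 in APL cells, the erythroid list between 193 and 325, and only the primary granule list is higher in APL cells.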

How the data were processed

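Total RNA was extracted from sorted cells with the Ambion AM1560 kit, and libraries followed the TruSeq RNA guide. The authors deposited 1 table of 16440 genes with an FPKM value, normalized per length and per mapped fragment, and a fragment value for each gene and library. The deposited fragment columns hold signal in units of estimated fragments, not read counts, because 86.93% to 89.47% of nonzero values per library were whole multiples (within 0.02) of a step that differed between libraries, and the rest were fractions. No count test was therefore applied. The submitters' processing notes name CASAVA 1.8, TopHat2 2.0.6 and mm10, while the paper's methods name STAR, mm9, HTSeq-count and DESeq2; the tool that made the table is not given in the sources used here. Reads were assigned upstream, and 2566 genes share a locus with another gene. Starts in the table, often 1 below RefSeq (7057 genes), were read as 0-based and are printed counted from 1.

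Values were tested with limma 3.58.1 (lmFit, eBayes with trend) in R 4.3.3 on log2(scaled fragments + 1), with a minimum of 1 in 3 of 6 libraries, two-sided, with Benjamini-Hochberg adjustment over 14595 genes. Fold changes on this scale understate those of low genes. The code of the fit was tested on simulated data, which does not show that its assumptions hold for these libraries. Single values were also compared by exact permutation tests. The members and gene lists were chosen with earlier results of these data known. Named were all members, at most 6 genes a list and 3 a marker list by mean, and the 3 nearest profiles of Epx and Prg2. Others are marked where named, apart from genes named only as untested, at the floor or sharing a locus. A gene at or under 3 fragments in all libraries of a group was read as at the floor. Ear stretches were aligned with MAFFT 7.526 and identities computed with Biopython 1.88, and Python 3.11.15 with matplotlib 3.10.9 drew the figures. P-values of limma set each group difference against the spread between these libraries, with variance estimates that draw on all genes tested.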

Additional observations from a re-analysis of the deposited data

How the results depend on the processing

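The members were recomputed under 17 or 18 alternatives each, covering the filter, the pseudocount, the scaling, FPKM, a replicate block and each library left out, and 1 added after seeing the data. All 7 kept their direction in every one, and the single call lost was that of Il5ra on log2(FPKM + 1), at −0.17 (limma, Benjamini-Hochberg adjusted p = 0.0082, fold change under 1.5). The size moved by over 1.5 times for Il5ra also with a pseudocount of 5 (−1.40), quantile normalization (−1.31) and log2(FPKM + 0.1) (−0.97), and for Prg3 on log2(FPKM + 1) (−1.71). With a library left out, the log2 fold changes spanned −2.70 to −2.19 for Epx, −2.71 to −2.24 for Prg2, −2.59 to −2.11 for Prg3, −1.35 to −1.08 for Ear1, −1.25 to −1.05 for Ear2, −1.44 to −1.03 for Ear10 and −2.22 to −1.86 for Il5ra, and the order of FPKM levels did not change. Over all genes, log2(FPKM + 1) gave 2205 genes lower in place of 3558, and leaving out a library gave 2913 to 3507 lower and 2734 to 3256 higher. Scaling to the same total moved the median of all genes by −0.13 and the share of lower calls from 52.91% to 60.82%, with the members still called. Quantile normalization left 1 of the 2 heme peroxidases called, Mpo being at 0.24, and a filter of at least 1 in all 6 libraries or a mean of at least 10 left 1 lower gene among the eosinophil surface genes, because Ltc4s was not tested. Signs turned for genes that were not called: Jak1 (−0.0067 with the same total), Sdcbp (−0.11 with the same total, −0.067 with quantile normalization, −0.013 on FPKM with either pseudocount, and −0.015 to 0.057 with a library left out), Ccr3 (0.41 with quantile normalization, and −0.73 to 0.20 with a library left out, above 0 without MP 3 and, at 0.047, without APL 3) and Cd79a, a lymphoid marker (0.38 with quantile normalization, and −0.60 to 0.0021 with a library left out). Of 1089 values of other listed genes, 1060 kept direction and call; the cause of the other changes was not tested. No clear pairing by library number was seen: deviations of same-numbered libraries correlated at 0.105, 0.0124 and 0.113. Those of libraries with unlike numbers correlated at −0.204 to 0.129. With 3 libraries a group, this cannot show whether same-numbered libraries were handled together. Adding a replicate block for the number gave 3589 genes lower and 3164 higher, 6673 of the 6725 calls were shared and all 7 members were called. Depth limits Il5ra and Ltc4s, at no more than 4 fragments in any APL library, and Ccr3, at 3 to 18 fragments over the 6 libraries.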
